A study of Mus musculus with 6 samples.

Results

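Guidance cues steer growing axons and vessel tips, and the genes described here are 34 mouse members of 3 such systems: the Eph receptors with their ephrin ligands, the Slit ligands with their Robo receptors, and the netrins with their receptors and the FLRT proteins that bind some of these. They were taken by symbol from a table of 56941 genes, in which all 34 were present, and 33 passed the filter on low counts. Hyperoxia libraries (3) came from mouse pups kept in 75% oxygen from postnatal day 0, and room air libraries (3) from pups kept in 21% oxygen over the same days. Lungs were taken on postnatal day 7, when alveoli are forming, and lung cells bearing CD31, an adhesion molecule of endothelial cells, were pulled from warm-digested tissue with magnetic beads before RNA sequencing. The labels name no strain, genotype or sex, and do not say whether a library was 1 animal or a pool, so the p-values reflect only how these samples vary, which may be technical.

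Eph receptors are receptor tyrosine kinases that bind ephrins on the surface of a neighbouring cell, and signals can pass into both cells. Ephrin-A ligands are held to the membrane by a lipid anchor, while ephrin-B ligands span it. In vessels, ephrin-B2 marks arteries and its receptor EphB4 marks veins, and contact between them keeps arterial and venous cells apart. Slits and netrins are secreted proteins: Slits act through Robo receptors such as Robo1, and netrins attract or repel through Dcc, neogenin and the Unc5 receptors. Robo4, a further member of the Robo family, is largely endothelial. Unc5b is the Unc5 receptor known for restraining vessel sprouts.

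Each library held 39379793 to 42343192 counts over 19471 to 23989 detected genes. Endothelial markers were high in all 6 libraries: Pecam1, the gene for CD31, stood at 2649, 1932 and 2441 CPM in hyperoxia and at 3109, 2969.6 and 2269 CPM in room air (CPM is a gene's share of the library's counts, scaled by TMM). Summed over 10 pan-endothelial markers, the level ran from 9979 to 13772 CPM in hyperoxia and from 12282 to 16957 CPM in room air. Markers of other lung cells were present as well. All 9 alveolar type 1 epithelial markers rose, and their sum was 5238 to 7029 CPM in hyperoxia, against 1901 to 2948 CPM in room air. Alveolar type 2 markers summed to 13496 to 16529 CPM in hyperoxia and 12131 to 18994 CPM in room air. The fibroblast sum was 1287 to 1758 CPM in hyperoxia and 1172 to 1283 CPM in room air, and the mural sum was 239.6 to 521 CPM in hyperoxia and 261 to 361 CPM in room air. Mesothelial markers summed to 123 to 174 CPM in hyperoxia and 49.2 to 66.8 CPM in room air, and lymphatic markers to 2709 to 3251 CPM in hyperoxia and 1421 to 1903 CPM in room air. Single genes weighed on these sums: Msln (137 CPM in hyperoxia, 40.6 CPM in room air) made up most of the mesothelial sum, whose list had a median log2 fold change of -0.46, and Lyve1 (1986 CPM in hyperoxia, 781 CPM in room air) was the largest part of the lymphatic one. The aerocyte sum was 3539 to 4033 CPM in hyperoxia and 2867 to 3369.7 CPM in room air, and Emp2 (1510 and 933 CPM) weighed on it. Of its 8 genes, 2 rose (Emp2 and Apln), Fibin fell (log2 fold change -1.29) and 5 did not pass the test given below. The part of any of these cells in the guidance results was not tested. Hyperoxia 2 stood apart on the first principal component (46.7% of the variance) at -89.3, where the other libraries ran from -14.3 to 42.6. It had the highest alveolar type 1 sum and the lowest pan-endothelial sum of the 6. Reads of Y-linked genes were found in hyperoxia 2 (157 CPM) and in all room air libraries (129 to 162 CPM), and in hyperoxia 1 and 3 they came to at most 0.0472 CPM. What sets hyperoxia 1 and 3 apart by Y-linked reads cannot be told apart from oxygen there. In such bulk RNA, fewer cells of a type and less RNA per cell cannot be told apart either.

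Ligand and receptor genes of all 3 systems changed in hyperoxia, and more of them rose than fell. Of the 33 members tested, 8 rose, 2 fell and 23 did not pass (edgeR's quasi-likelihood test, adjusted p below 0.05 over all genes). The genes that rose were Ephb3, Efna1, Efna3, Slit3, Robo1, Ntn1, Ntn4 and Neo1, and those that fell were Efnb1 and Unc5b. Across all 17072 genes tested, 6.77% rose and 4.41% fell (11.2% called in either direction), against 24.2% and 6.06% of the tested members. The members were chosen with earlier results of these data known, so their shares are no independent comparison. The groups did not overlap at 13 members that were higher in hyperoxia and at 6 that were lower, against 16.5% and 14.4% of all genes (30.9% in either direction). The median log2 fold change of the members was 0.044, beside -0.0093 for all genes, while the median of its size without sign was 0.56, beside 0.27. Of the 12 ligand genes, 5 rose and 1 fell, and of the 19 receptor genes tested, 3 rose and 1 fell. The call counts lean on single libraries: 4 members rose without hyperoxia 3, and 5 without room air 1 or room air 2. Both falls were lost without room air 1 or room air 2, Unc5b was lost without hyperoxia 1 or hyperoxia 2, and 4 members fell without room air 3.

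**Figure D1:**
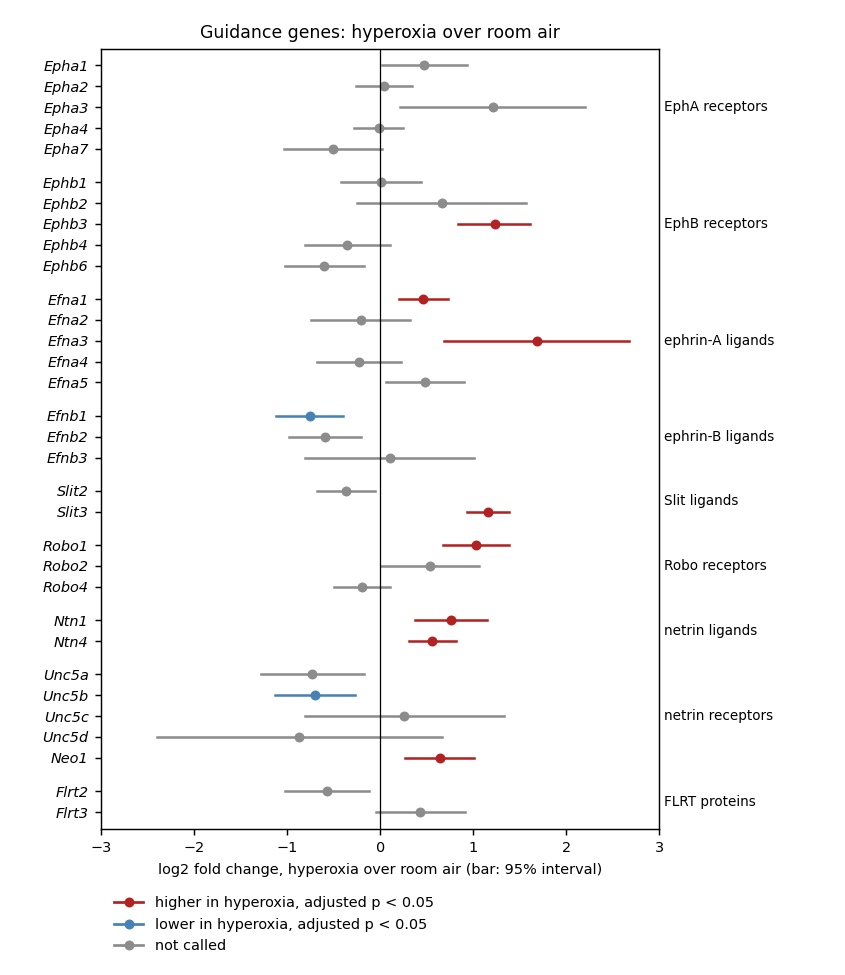
Log2 fold change of each tested guidance gene, hyperoxia over room air, with its 95% interval (n = 3 libraries per group), grouped by family; Epha5 (2 hyperoxia libraries at 0 counts) and the untested Dcc are not drawn. The 8 members that rose are spread over EphB receptors, ephrin-A ligands, Slit, Robo, netrin and netrin receptor genes, and the 2 that fell are Efnb1 at -0.76 and Unc5b at -0.70.

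Promoter windows from RefSeq (build GRCm38.p6, 250 bases before to 50 after a gene's start) were on hand for 30 of the members. Those of 3 genes that rose more than 2-fold and held in every alternative tried, Slit3 (chr11:35121206-35121505, plus strand), Robo1 (chr16:72662899-72663198, plus strand) and Ephb3 (chr16:21204545-21204844, plus strand), are shown with that of Efnb1 (chrX:99135811-99136110, plus strand), the member with the largest called fall, to compare genes that moved in opposite directions. Capitals mark matches on either strand to the SP site GGGCGG, the hypoxia response core ACGTG or the p53 half-site; 1 pair of SP matches in Slit3 overlaps.
Slit3: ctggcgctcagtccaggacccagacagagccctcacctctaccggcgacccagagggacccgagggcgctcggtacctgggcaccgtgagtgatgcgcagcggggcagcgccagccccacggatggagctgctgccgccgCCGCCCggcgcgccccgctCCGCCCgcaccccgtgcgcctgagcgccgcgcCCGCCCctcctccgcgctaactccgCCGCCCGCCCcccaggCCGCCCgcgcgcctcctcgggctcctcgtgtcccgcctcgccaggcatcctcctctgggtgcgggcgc
Robo1: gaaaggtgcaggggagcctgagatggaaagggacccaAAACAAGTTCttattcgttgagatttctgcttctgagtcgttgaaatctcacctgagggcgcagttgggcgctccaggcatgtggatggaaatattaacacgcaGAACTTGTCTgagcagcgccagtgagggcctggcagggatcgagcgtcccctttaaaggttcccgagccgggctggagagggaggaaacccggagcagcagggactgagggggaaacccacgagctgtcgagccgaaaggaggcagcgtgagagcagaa
Ephb3: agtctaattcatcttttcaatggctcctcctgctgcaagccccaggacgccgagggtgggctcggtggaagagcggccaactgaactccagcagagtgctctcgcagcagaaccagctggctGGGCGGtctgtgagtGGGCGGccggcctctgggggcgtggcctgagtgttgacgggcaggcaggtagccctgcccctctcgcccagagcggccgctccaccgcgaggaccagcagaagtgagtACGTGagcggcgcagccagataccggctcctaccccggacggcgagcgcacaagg
Efnb1: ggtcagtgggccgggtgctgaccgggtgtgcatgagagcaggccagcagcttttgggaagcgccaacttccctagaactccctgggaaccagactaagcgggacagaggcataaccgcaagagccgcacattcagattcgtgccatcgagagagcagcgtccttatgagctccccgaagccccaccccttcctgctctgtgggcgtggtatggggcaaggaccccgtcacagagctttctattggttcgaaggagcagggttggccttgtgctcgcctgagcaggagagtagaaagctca
The window of Slit3 held 6 SP matches, that of Ephb3 held 2 with 1 hypoxia response core, that of Robo1 held 2 p53 half-sites and no SP match, and that of Efnb1 held none of the 3 motifs. Over all 32841 windows, 35.7% held the SP site, 19.6% the hypoxia response core and 8.36% the p53 half-site. The 30 members had 35 windows, and a member counted once if any of its windows matched, while the shares over all windows count single windows. Among members with a window, the SP site was found at 6 of 7 that rose, 1 of 2 that fell and 12 of 21 that did not pass. The hypoxia response core was found at 1, 0 and 4 of these, and the p53 half-site at 1, 0 and 1. Other motifs were searched on both strands. The AP-1 site TGANTCA was in 7.81% of all windows and at 0 of the 30 members, and the antioxidant response core TGACNNNGC in 12.4% and at 4 members. The RBPJ site GTGGGAA was in 6.38% and at 2 members, the TEAD site GGAATG in 14.7% and at 5 members, and the TATA box TATAAA in 13.6% and at 2 members. The member windows had a median of 22 CpG beside 7 over all windows. A match describes letters in a window and is no evidence of binding.

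Among the 11 Eph receptor genes, Ephb3 rose and the other 10 did not pass. Ephb3 encodes an EphB receptor that binds ephrin-B ligands. It stood at 37.9, 54.2 and 41 CPM in hyperoxia and at 15.6, 18.6 and 22.7 CPM in room air. Each hyperoxia library was above each room air library, and hyperoxia 2 was the highest. This was a log2 fold change of 1.23 (SE 0.18, adjusted p = 0.0018, n = 3 per group), and it stayed between 1.06 and 1.52 in every alternative, with adjusted p-values of at most 0.0121. Across the 6 libraries its order was that of the summed alveolar type 1 markers, whose part in the rise was not tested.

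Ephb4, the venous receptor of ephrin-B2, had the highest level of all members per kilobase of exon, at 170.1 ± 33.2 CPM per kilobase in hyperoxia and 218 ± 54.1 in room air (SD, n = 3 each). Its libraries held 826, 576 and 829 CPM in hyperoxia, against 1167, 989 and 698 CPM in room air. The groups overlapped, and the log2 fold change of -0.36 (95% limits -0.81 and 0.10) did not pass (adjusted p = 0.321). Set against 1000 CPM of summed pan-endothelial markers, Ephb4 came to 60.7 ± 3.41 CPM in hyperoxia and 62.1 ± 6.12 CPM in room air. That divisor was itself lower on average in hyperoxia, and on this scale 24.2% of all genes tested were higher there without overlap and 3.58% lower. Ephb6, a receptor that lacks kinase activity, was at 6.4, 6.13 and 5.51 CPM in hyperoxia and at 9.99, 7.83 and 9.61 CPM in room air. These groups did not overlap, but the log2 fold change of -0.60 (SE 0.19) did not pass (adjusted p = 0.0734), although DESeq2 called it (adjusted p = 0.0242). Ephb1 differed by a log2 fold change of 0.012 (95% limits -0.42 and 0.44). Ephb2 was at a low level, 1.64 ± 0.516 CPM in hyperoxia and 1.04 ± 0.15 CPM in room air, which did not overlap and did not pass (log2 fold change 0.66, adjusted p = 0.364).

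Of the 6 EphA receptor genes, edgeR and DESeq2 each called 0 with the filter on low counts and no covariate, with 2 at an unadjusted p below 0.05 by edgeR. Epha2, an EphA receptor found on endothelium and epithelium, gave 81.2% ± 0.987 of the EphA signal per length in hyperoxia and 81.7% ± 2.49 in room air. It was at 211, 262 and 255 CPM in hyperoxia and at 238, 266 and 202 CPM in room air, and the 95% limits of its log2 fold change were -0.26 and 0.34. Epha4, which binds ephrins of both classes, was at 58.2 ± 3.77 CPM in hyperoxia and 58.8 ± 8.15 CPM in room air, with limits of -0.28 and 0.25. Epha1 (log2 fold change 0.47, adjusted p = 0.181) and Epha3 (1.21, adjusted p = 0.119) were higher in each hyperoxia library than in any room air library without passing. Epha3 held 2.04, 5.83 and 2.34 CPM in hyperoxia and 1.09, 1.33 and 2 CPM in room air, so its log2 fold change leaned on hyperoxia 2 and was 0.57 without it. Epha3 passed by edgeR without a filter on low counts (adjusted p = 0.0234), a fit that also lowered the adjusted p of each called member. In the fit that took account of Y-linked reads its log2 fold change was 1.98. There the oxygen effect rests on hyperoxia 2 against the room air libraries, so that value leans on the same library. Epha7 was lower without passing (log2 fold change -0.51, adjusted p = 0.217). Epha5 had 14, 0 and 0 counts in hyperoxia and 5, 19 and 20 counts in room air.

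The summed level of the ephrin-A ligand genes was higher in hyperoxia, through Efna1, and this sum was given no test. Of the 5 genes, 3 had a positive log2 fold change and 2 a negative one. Efna1 encodes ephrin-A1, a ligand of EphA2 that inflammatory cytokines can induce in human endothelial cells. It was at 277, 225 and 248 CPM in hyperoxia and at 183, 196 and 165 CPM in room air, without overlap. Efna1 rose by a log2 fold change of 0.46 (SE 0.12, adjusted p = 0.0341). Summed over the 5 ephrin-A genes, the level was 146 ± 13.4 CPM per kilobase in hyperoxia and 108 ± 8.77 in room air, and Efna1 gave 93.8% ± 1.13 and 91.8% ± 0.615 of these sums. Its ratio to Epha2, per length, was 2.24 ± 0.501 in hyperoxia and 1.65 ± 0.0815 in room air. The call failed on leaving out hyperoxia 1 (adjusted p = 0.136), hyperoxia 3 (0.115), room air 1 (0.0887), room air 2 (0.0588) or room air 3 (0.0726). It also failed in a fit that took account of Y-linked reads (log2 fold change 0.31, adjusted p = 0.228), where the oxygen effect rests on hyperoxia 2 against the 3 room air libraries.

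Efna3, encoding ephrin-A3, showed the largest called fold of the members from one of the lowest levels. It had 49, 85 and 93 counts in hyperoxia and 26, 25 and 20 counts in room air, or 1.88 ± 0.616 CPM and 0.583 ± 0.0871 CPM. The log2 fold change was 1.69 (SE 0.45, adjusted p = 0.037), and opposite-strand annotation covers 14.1% of its exons, where reads cannot be told apart without strand. The call was lost without hyperoxia 2 (adjusted p = 0.0614), hyperoxia 3 (0.153), room air 1 (0.0823), room air 2 (0.0997) or room air 3 (0.092). In the mouse genome Efna1, Efna3 and Efna4 are neighbours. Efna4 stood at 6.98 ± 1.14 CPM in hyperoxia and 8.18 ± 0.926 CPM in room air (log2 fold change -0.23, adjusted p = 0.539). The protein-coding genes that flank the 3, Slc50a1 (log2 fold change -0.16, adjusted p = 0.432) and Adam15 (0.092, adjusted p = 0.779), did not pass either. Efna5 was higher in each hyperoxia library, at 7.68, 9.34 and 8.63 CPM, than in any room air library, at 6.24, 5.64 and 6.49 CPM, without passing (log2 fold change 0.48, adjusted p = 0.141). Efna2 differed by -0.21 (95% limits -0.75 and 0.32).

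Of the 3 ephrin-B ligand genes, Efnb1 fell and the other two did not pass. Summed over the 3 genes, the level was 199 ± 16.6 CPM per kilobase in hyperoxia and 312 ± 68.6 in room air, without overlap and without a test. Arterial markers (4 of 8 fell, median log2 fold change -0.64) and general capillary markers (4 of 8 fell, median -0.61, Cxcl12 being on both lists) fell in the same comparison. Venous markers went both ways (3 of 8 rose and 1 fell, median 0.38). The part of these markers was not tested. Efnb1, the X-linked gene for ephrin-B1, was at 236, 186 and 223 CPM in hyperoxia and at 392, 419.7 and 279 CPM in room air, with every hyperoxia library below the lowest room air library. Its log2 fold change was -0.76 (SE 0.16, adjusted p = 0.014). Hyperoxia 2, the hyperoxia library with Y-linked reads, had the lowest Efnb1 value of all 6 and also the lowest pan-endothelial sum. In the fit that took account of Y-linked reads, whose oxygen effect rests on hyperoxia 2, the log2 fold change was -0.96. The part of either in the fall was not tested. Per 1000 CPM of summed pan-endothelial markers, Efnb1 came to 17.7 ± 0.848 CPM in hyperoxia and 23.9 ± 1.62 CPM in room air, again without overlap. Leaving out room air 1 (adjusted p = 0.0519) or room air 2 (0.0625) ended the call.

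Efnb2, the arterial ephrin, sat at the threshold. It held 623, 588 and 694 CPM in hyperoxia and 936, 1195 and 745 CPM in room air. The groups did not overlap, with room air 3 nearest to hyperoxia. The log2 fold change was -0.59 (SE 0.17, 95% limits -0.98 and -0.21), and the adjusted p of 0.052 missed the threshold. It passed with DESeq2 (adjusted p = 0.00312), without a filter on low counts (0.00166), with a filter of 1 CPM in 3 libraries (0.0424) and without room air 3 (0.00769). Per 1000 CPM of pan-endothelial markers, its levels of 52.7 ± 6.94 CPM in hyperoxia and 63 ± 9.24 CPM in room air overlapped. The ratio of Efnb2 to Ephb4 per length was 0.688, 0.931 and 0.763 in hyperoxia and 0.731, 1.1 and 0.973 in room air, and the groups overlapped. Efnb1 gave 33.1% ± 2.24 of the ephrin-B sum in hyperoxia and 35.8% ± 2.07 in room air, which overlapped as well. Efnb3 was at 2.23 ± 1.26 CPM in hyperoxia and 2.08 ± 0.292 CPM in room air.

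**Figure D2:**
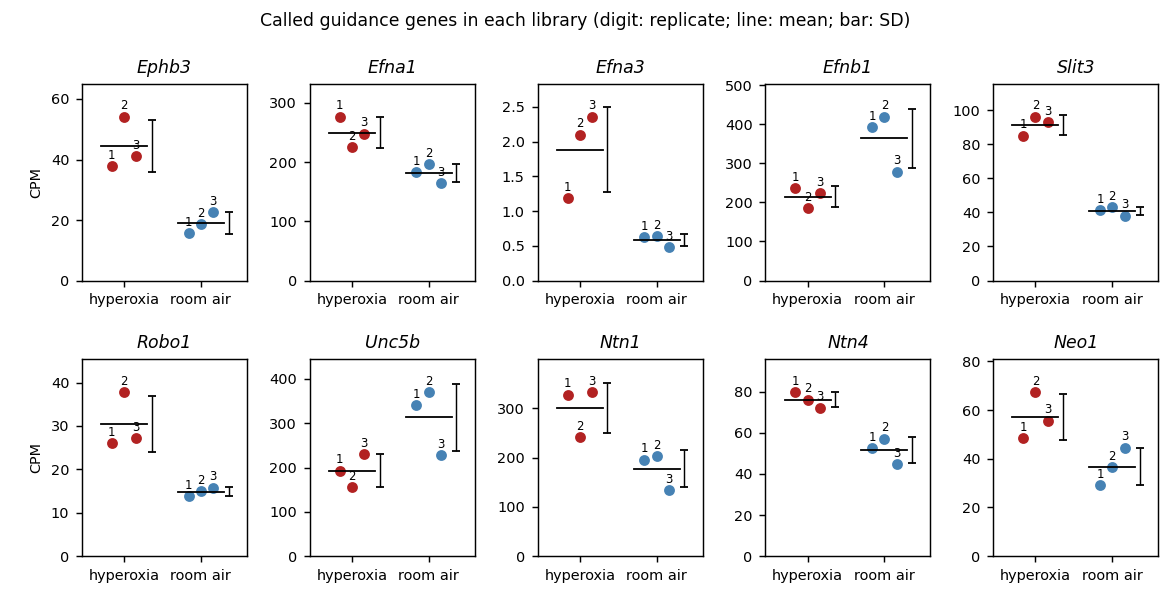
CPM of the 10 called guidance genes in each library, hyperoxia beside room air (digit: replicate number, line: mean, bar: SD, n = 3 each; each panel has its own axis from 0). The groups are apart in every panel except Unc5b, where hyperoxia 3 (229.9 CPM) lies just above room air 3 (228 CPM).

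Of the Slit genes, Slit3 rose and Slit2 did not pass. Slit3 gave the lowest adjusted p of all members. It was at 85, 96.2 and 92.9 CPM in hyperoxia and at 41.1, 43.2 and 38.1 CPM in room air, tight within each group and far apart between them. Slit3 rose by a log2 fold change of 1.16 (SE 0.10, adjusted p = 0.000174), with values of 1.11 to 1.24 and adjusted p-values of at most 0.0015 in every alternative. Per 1000 CPM of pan-endothelial markers it reached 7.68 ± 1.78 CPM in hyperoxia and 2.72 ± 0.348 CPM in room air. Slit2 held 26.5, 27.8 and 22.4 CPM in hyperoxia and 31.2, 38.1 and 29.5 CPM in room air. Every hyperoxia library was below every room air library, but the log2 fold change of -0.37 (SE 0.14) did not pass (adjusted p = 0.127). Slit3 accounted for 87.3% ± 1.45 of the Slit signal per length in hyperoxia and 70.4% ± 1.7 in room air. The ratio of Slit3 to Slit2 was 6.15, 6.64 and 7.97 in hyperoxia and 2.52, 2.17 and 2.47 in room air.

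Of the Robo receptor genes, Robo1 rose. Robo1 is a broadly expressed Slit receptor. It was at 26.1, 37.8 and 27.2 CPM in hyperoxia and at 13.8, 14.9 and 15.8 CPM in room air, where the room air libraries lay within a narrow range and hyperoxia 2 was the highest. The log2 fold change was 1.03 (SE 0.16, adjusted p = 0.00284), between 0.85 and 1.35 in every alternative with adjusted p-values of at most 0.0157. As for Ephb3, its order over the 6 libraries was that of the alveolar type 1 sum, whose part was not tested. Robo4, the endothelial Robo, was at 313, 259 and 329.7 CPM in hyperoxia and at 358, 378 and 299.7 CPM in room air. The groups overlapped, with a log2 fold change of -0.20 (95% limits -0.50 and 0.10, adjusted p = 0.412). Per 1000 CPM of pan-endothelial markers, Robo4 came to 24.8 ± 1.78 CPM in hyperoxia and 22.9 ± 1.67 CPM in room air. Robo4 still gave 92.1% ± 2.52 of the Robo signal per length in hyperoxia and 96.2% ± 0.799 in room air, while the share of Robo1 was 6.43% ± 2.04 and 2.83% ± 0.49. Robo2 was at 7.2, 10.3 and 7.34 CPM in hyperoxia and at 5.27, 4.77 and 7.1 CPM in room air, which did not overlap and did not pass (log2 fold change 0.53, adjusted p = 0.189).

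Both netrin ligand genes among the members rose. Of the netrin genes on the separate list described below, Ntn3 (log2 fold change -0.011, adjusted p = 0.982) and Ntng2 (-0.28, 0.357) did not pass. Ntn5, at 0.42 CPM in hyperoxia and 1.26 CPM in room air, was lower in each hyperoxia library without passing (-1.58, adjusted p = 0.184). Ntn1 encodes netrin-1, the best known ligand of Unc5b in vessels. It was at 328, 242 and 333 CPM in hyperoxia and at 196, 203 and 134 CPM in room air, without overlap. Ntn1 rose by a log2 fold change of 0.76 (SE 0.18, adjusted p = 0.0205). In both groups the library with the lowest pan-endothelial sum (hyperoxia 2 and room air 3) was also the lowest for Ntn1, and per 1000 CPM of those markers the levels were 23.8, 24.2 and 25.8 CPM in hyperoxia and 11.6, 12.4 and 10.9 CPM in room air. The Ntn1 call was lost without hyperoxia 1 (adjusted p = 0.0661) or hyperoxia 3 (0.0872) and in the fit that took account of Y-linked reads (log2 fold change 0.45, adjusted p = 0.188).

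Ntn4 encodes netrin-4, a basement membrane protein that binds laminin. It was at 79.8, 76.2 and 72.3 CPM in hyperoxia and at 52.7, 57.2 and 44.9 CPM in room air, so the groups lay well apart. The log2 fold change was 0.56 (SE 0.11, adjusted p = 0.0109), and the call held in every alternative with adjusted p-values of at most 0.045. Summed per length, Ntn1 and Ntn4 reached 70.3 ± 8.39 CPM per kilobase in hyperoxia and 43.3 ± 7.85 in room air.

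Netrin receptor genes went both ways. Unc5b was at 193, 155 and 229.9 CPM in hyperoxia and at 341, 370.4 and 228 CPM in room air, so hyperoxia 3 and room air 3 were level while the other libraries were apart. It fell, with a log2 fold change of -0.70 (adjusted p = 0.0419), a call that was lost on leaving out hyperoxia 1 (0.101), hyperoxia 2 (0.121), room air 1 (0.123) or room air 2 (0.161). The ratio of Ntn1 to Unc5b per length, a ligand and its receptor within 1 library, was 1.64, 1.51 and 1.39 in hyperoxia and 0.554, 0.527 and 0.568 in room air. That ratio was 2.75 times as high in hyperoxia. Gene pairs for such ratios were chosen after their values were seen, so they are given without a test. Neo1, which encodes neogenin, a receptor for netrins and for repulsive guidance molecules, stood at 48.6, 67.4 and 55.7 CPM in hyperoxia and at 29.2, 36.6 and 44.6 CPM in room air. It rose by a log2 fold change of 0.64 (SE 0.17, adjusted p = 0.0346). Hyperoxia 2 was again the highest, and the order over libraries was that of the alveolar type 1 sum, whose part was not tested. Per 1000 CPM of pan-endothelial markers the Neo1 groups overlapped. The Neo1 call was lost without hyperoxia 2 (adjusted p = 0.094), hyperoxia 3 (0.0882), room air 1 (0.108) or room air 2 (0.108).

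Unc5a, a repulsive netrin receptor best known from neurons, was at 20.8, 9.39 and 19.2 CPM in hyperoxia and at 27.4, 30.4 and 24 CPM in room air. The groups did not overlap and hyperoxia 2 was far below the rest, but the log2 fold change of -0.73 (SE 0.25) did not pass (adjusted p = 0.0916). DESeq2 called it (adjusted p = 0.0266), as did edgeR without a filter on low counts (0.00021). In the fit that took account of Y-linked reads, whose oxygen effect rests on hyperoxia 2, the log2 fold change was -1.54. Unc5c and Unc5d averaged 2.26 ± 1.34 and 0.507 ± 0.272 CPM in hyperoxia, against 1.89 ± 0.947 and 0.927 ± 0.621 CPM in room air, and did not pass. Dcc, the netrin receptor of axons, had 0 counts in every hyperoxia library and in room air 1 and 2, and 2 counts in room air 3. A count of 0 allows up to 3 counts, or 0.072 to 0.077 CPM at this depth, for counting error only.

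**Figure D3:**
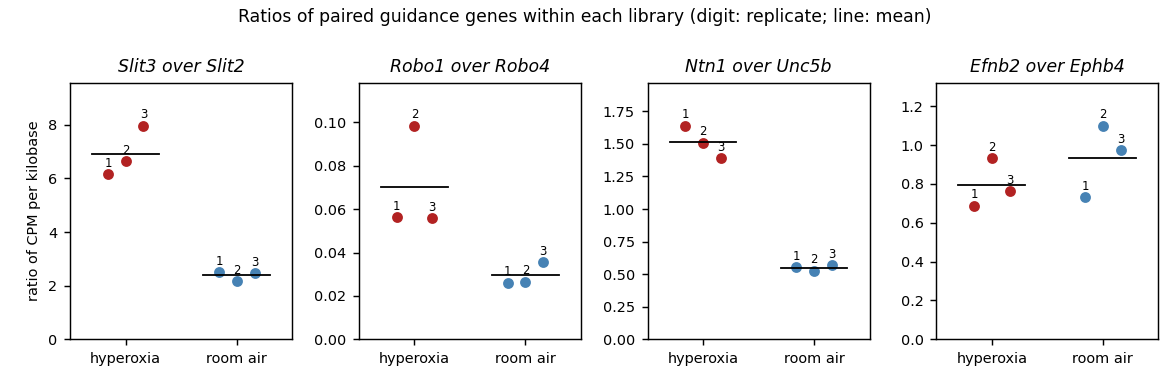
Ratios of CPM per kilobase between paired guidance genes within each library, hyperoxia beside room air (digit: replicate number, line: mean of 3; each axis starts at 0). Slit3 over Slit2, Robo1 over Robo4 and Ntn1 over Unc5b are higher in each hyperoxia library than in any room air library, while Efnb2 over Ephb4 overlaps.

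The 2 FLRT genes, whose membrane proteins bind Unc5 receptors and latrophilins, were not called by edgeR or by DESeq2 with the filter on low counts, with 1 at an unadjusted p below 0.05 by edgeR. Flrt2 was at 13.1, 10.4 and 15.2 CPM in hyperoxia and at 21.1, 22.2 and 14.2 CPM in room air (log2 fold change -0.57, adjusted p = 0.105). Flrt3 was at 32.7, 56.8 and 43 CPM in hyperoxia and at 23.8, 34.4 and 40 CPM in room air (log2 fold change 0.43, adjusted p = 0.251). Both overlapped between groups. Without room air 3, Flrt2 passed (log2 fold change -0.75, adjusted p = 0.028). By edgeR without a filter on low counts both passed (adjusted p = 0.0195 for Flrt2 and 0.0231 for Flrt3). Their log2 fold changes there were nearly the same (-0.57 and 0.44), and that fit lowered the adjusted p of each called member as well.

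By level per length, a handful of genes made up most of the guidance signal. In hyperoxia the order was Ephb4, Efna1 (137 ± 14.2 CPM per kilobase), Efnb2 (132 ± 11.2), Efnb1 (66 ± 7.85), Epha2 (62 ± 6.99), Robo4 (58.9 ± 7.21), Ntn1 (49.4 ± 8.39) and Unc5b (32.8 ± 6.42). In room air it was Ephb4, Efnb2 (200 ± 47.1), Efnb1 (112 ± 22.9), Efna1 (99.1 ± 8.58), Robo4 (67.5 ± 7.92), Epha2 (60.2 ± 8.1), Unc5b (53.3 ± 12.8) and Ntn1 (29.2 ± 6.2). Efna1 thus came right after Ephb4 in hyperoxia, and after both Efnb2 and Efnb1 in room air. Neighbours that differed by less than the larger of their SDs were Ephb4 and Efna1, Efna1 and Efnb2, Efnb1 and Epha2, and Epha2 and Robo4 in hyperoxia. In room air they were Ephb4 and Efnb2, Efnb1 and Efna1, Robo4 and Epha2, and Epha2 and Unc5b. Lengths came from an annotation of another genome build, and with all annotated exons in place of the basic set Efnb2 came to 92.6 CPM per kilobase in hyperoxia and 139.8 in room air.

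**Figure D4:**
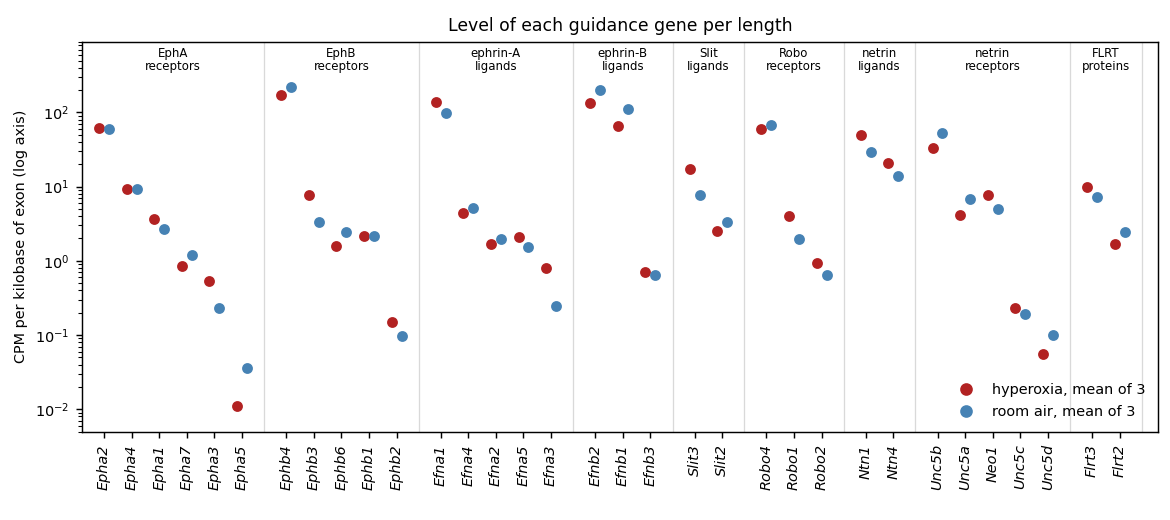
Mean CPM per kilobase of exon of each guidance gene on a log axis, by family, hyperoxia beside room air (n = 3 each); Dcc is not drawn. Each family is led by 1 or 2 abundant genes, such as Ephb4 at 170.1 in hyperoxia and 218 in room air.

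Further genes of these pathways were described from a separate list of 51 receptors, co-receptors, ligands and signalling partners, of which 44 were tested. Of these, 4 rose, 4 fell and 36 did not pass (median log2 fold change -0.036), a share of 9.09% in each direction, beside 6.77% higher and 4.41% lower over all genes. Rgma, a repulsive guidance molecule that binds neogenin, rose, as Neo1 did. It was at 11.1, 23 and 15.1 CPM in hyperoxia and at 5.4, 6.43 and 6.47 CPM in room air (log2 fold change 1.43, SE 0.25, adjusted p = 0.00497). Pdzrn3, a ubiquitin ligase of vessel patterning, was at 44.8, 66.9 and 49.1 CPM in hyperoxia and at 23.5, 26.8 and 29.3 CPM in room air (log2 fold change 1.01, adjusted p = 0.00284). Hyperoxia 2 was the highest library for both genes. Latrophilin genes, which encode FLRT partners, divided: Adgrl3 rose (log2 fold change 0.64, adjusted p = 0.0196), Adgrl1 fell (-0.56, adjusted p = 0.0408), and Adgrl2 did not pass (0.13, adjusted p = 0.679). Without strand, 15.6% of the exonic bases of Adgrl1 are shared with genes on the opposite strand. Dock4, a Rac activator, rose (0.40, adjusted p = 0.0311), a call that was lost in each fit that left out 1 library. Among signalling partners that fell, Tiam1, a Rac activator that ephrin and Eph proteins can recruit, was at 18.7, 13.2 and 19.6 CPM in hyperoxia and at 62.4, 70.8 and 50.1 CPM in room air (log2 fold change -1.83, SE 0.18, adjusted p = 0.000247). Ablim1, an actin-binding protein whose worm counterpart acts downstream of the netrin receptor, fell (-0.63, adjusted p = 0.0138), as did Anks1, an adaptor of Eph receptors (-0.52, adjusted p = 0.0205). Leaving out room air 2 left Tiam1 as the 1 gene of the list that fell, and leaving out hyperoxia 1 or 2 left Tiam1 and Ablim1. Without hyperoxia 3, Rgma and Pdzrn3 were the 2 that rose.

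The order of the libraries within each group differed between members. Epha1, Epha3, Ephb3, Robo1 and Neo1 (5 of 34) had the 6 libraries in the same order as the summed alveolar type 1 markers, lowest in room air 1 and highest in hyperoxia 2. Within groups that order is also the order of the summed mural markers and the reverse of the pan-endothelial sum, so the marker lists cannot be told apart on it. These 5 genes and the alveolar type 1 sum were also apart between the groups, which fixes part of the order. Its share over all genes was not counted. Ephb4, Efna1, Efnb1 and Unc5a ordered 5 of the 6 within-group pairs of libraries as the pan-endothelial sum did. The same 5 of 6 held for the venous, aerocyte, general capillary and lymphatic sums, so those lists cannot be told apart on it. Ephb4 ordered all 6 pairs as the arterial sum did. Slit3 ordered 4 of 6 pairs as the alveolar type 1 sum, and Ntn4 ordered 4 of 6 as the pan-endothelial sum, both near an even split. The part of these cell markers in the fold changes was not tested, beyond the levels per pan-endothelial marker given above. On that scale Ephb3, Efna1, Efna3, Efna5, Slit3, Robo1, Ntn1 and Ntn4 were higher in each hyperoxia library than in any room air library, and Efnb1, Unc5a and Unc5b were lower. With 24.2% of all genes higher on that scale, the 8 members are no more than the general share, while 3.58% of all genes were lower.

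**Figure D5:**
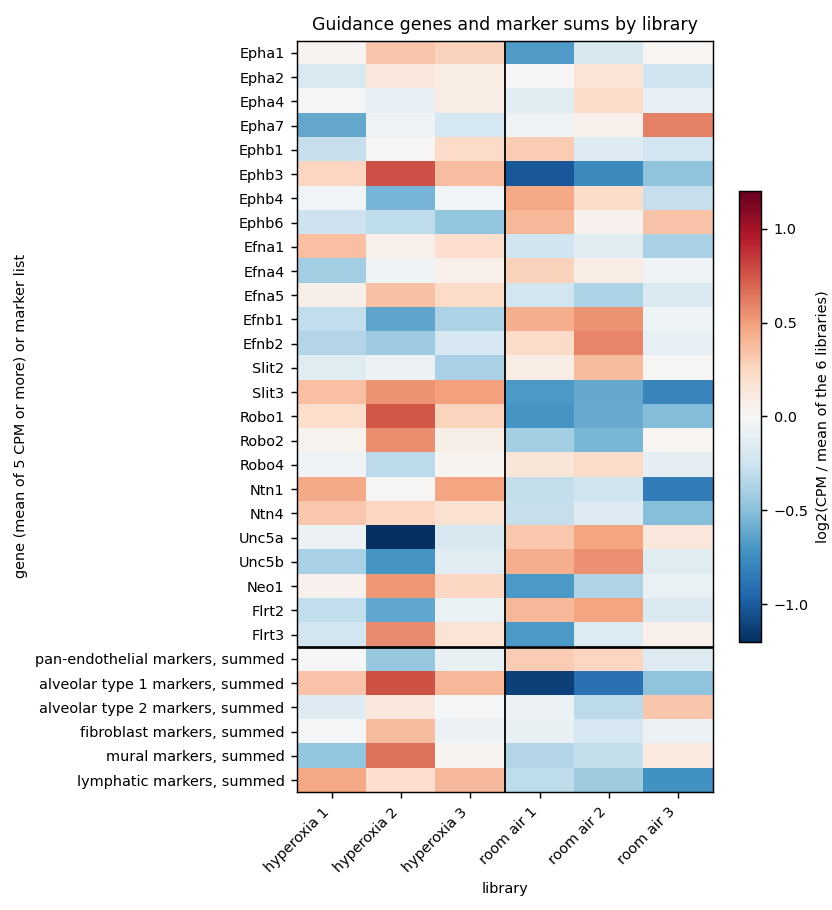
Log2 ratio of CPM in each library to the mean of the 6 libraries, for the members with a mean of 5 CPM or more and, under the line, for 6 summed marker lists; hyperoxia libraries are left of room air libraries. Ephb3, Robo1 and Neo1 are strongest in hyperoxia 2, as is the alveolar type 1 sum, while Ntn1 and Efna1 are weaker there than in hyperoxia 1 and 3.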

How the data were processed

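The authors deposited raw counts for 56941 Ensembl genes in 6 libraries. GRCm39, HISAT2 2.2.1, Subread 2.0.6, featureCounts and DESeq2 are named in the submitters' processing notes, without roles. The annotation release, strand setting and treatment of multimapping reads are not stated there. Symbols matched 51948 IDs. Exon lengths and overlaps came from GENCODE M21 (GRCm38).

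Genes were kept by filterByExpr (minimum count 10, total 15), scaled by TMM and compared, hyperoxia over room air without covariates, by edgeR 4.0.16's robust quasi-likelihood test (R 4.3.3), with Benjamini-Hochberg adjustment over 17072 genes. Standard errors are the log2 fold change over the root of F. Tested on simulated data, it recovered 64.6% of 96 genes changed by a log2 of 1 and 86% of 93 changed by 2, and 6.58% of 152 calls were false. The simulated counts were drawn independently for each gene, without shared library effects such as that of hyperoxia 2, so these shares may not carry over. No libraries were duplicates (chi-square within groups 14.1 or more times its degrees of freedom). DESeq2 was version 1.42.0.

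Members, lists and motifs were chosen with earlier results of these data known. Levels per kilobase are CPM over exon length. Y-linked read status came from Y-linked genes. All members are named, and of the other pathway genes those called, with some that did not pass. Alternatives were DESeq2 size factors, other filters, each library left out, a replicate block, Y-linked read status and DESeq2's test.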

Additional observations from a re-analysis of the deposited data

How the results depend on the processing

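The 10 called members kept their direction in all 120 values from 12 alternatives, and 93 of these still passed. Ephb3, Slit3, Robo1 and Ntn4 passed in each. Of 274 values of the members not called, 13 passed and 12 changed sign. Members that fell (2) became 5 without a filter on low counts and 5 by DESeq2; other pathway genes that fell (4) became 9 with Y-linked reads as a term; and all genes that fell (753) became 1243 without a filter, 1223 with Y-linked reads as a term and 1243 by DESeq2. With Y-linked reads as a term, the oxygen effect rests on hyperoxia 2 against the room air libraries. Without a filter, each called member had a lower adjusted p by edgeR at nearly the same log2 fold change. For Slit3 it was 2.4e-16, beside 0.000174 in the main fit. The cause of these shifts was not tested. With 1 library left out, 4 to 6 members rose and 0 to 4 fell, 2 to 3 other pathway genes rose and 1 to 5 fell, and 681 to 1095 of all genes rose and 376 to 749 fell. Signs turned in these fits for Epha2 (-0.056 to 0.14), Epha4 (-0.085 to 0.1), Ephb1 (-0.13 to 0.19), Efnb3 (-0.47 to 0.34) and Unc5c (-0.34 to 0.75). Same-numbered libraries did not pair (correlations of deviations 0.112, -0.0389 and -0.0899), and only replicate 1 correlated best with its own number. With the replicate number as a block, 6 members rose and 1 fell, 1 other pathway gene fell, 881 of all genes rose and 514 fell, and Efnb3 turned to -0.022. Members near 1 CPM, such as Efna3, Ephb2 and Unc5d, rest on few counts per library, which limits what is detectable there.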

Other observations

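Hyperoxia 2 also stood apart at members outside the called set. In that library Epha3 (5.83 CPM), Unc5c (3.81 CPM) and Efnb3 (3.68 CPM) had their highest values of all 6 libraries, and Unc5a (9.39 CPM) had its lowest.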
